A study of Mus musculus with 3 samples.

Results

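The 8 genes described here are the metallothioneins Mt1 and Mt2, the glucocorticoid receptor gene Nr3c1, and 5 genes that glucocorticoids induce in many tissues, namely Fkbp5, Tsc22d3, Zbtb16, Sgk1 and Dusp1. They were chosen by name, as 8 of the 20284 genes with a named probe, and every probe of each was taken, which gave 9 probes because Nr3c1 had a pair. All 8 were among the 13626 genes measured on every array, where measured means marked well above background by the scanner software. RNA came from livers of c57BL6/J mice at 2 days after human YAP was delivered by hydrodynamic tail vein injection (HTVi), in which a rapid injection of plasmid puts a gene into part of the hepatocytes. The groups were YAP (WT), and the active mutants YAP (1SA) and YAP (2SA), in which serines that Hippo signalling phosphorylates are replaced by alanine. Each group was 1 one-colour Agilent array.

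All groups shared the injection, the strain and the vector, in which a hepatocyte-specific AFP enhancer and a minimal albumin promoter drive YAP. The methods describe HTVi in male mice of 8 weeks, the sex and age mainly used in the study. HTVi leaves most hepatocytes and all other liver cells without the transgene, so each array read a mosaic organ. The labels do not say whether 1 liver or a pool was hybridised, and the title of the YAP (WT) array carries the number 2. No uninjected liver was analysed here. With 1 array per group no difference has a replicate check, no test was run, and the construct and the liver sample cannot be told apart. Both mutants were compared with the same YAP (WT) array, so those differences share its error.

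Metallothioneins are small cysteine-rich proteins that bind zinc and copper. In liver their genes are induced by zinc through the metal-sensing factor MTF1, which binds metal response elements near their start sites, and also by glucocorticoids and by inflammatory and oxidative signals. The glucocorticoid receptor is held by a chaperone complex in the cytoplasm, enters the nucleus once a corticosteroid binds it, and activates genes through glucocorticoid response elements. Among its classical targets are a co-chaperone that lowers its own hormone binding (Fkbp5), a leucine zipper protein known as GILZ (Tsc22d3) and a phosphatase of MAP kinases (Dusp1).

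The promoters of both metallothionein genes are shown because the metal response core, TGCACNC or TGCGCNC on either strand, lies in them. The sequences are from the RefSeq promoter table of build GRCm38.p6. They run 5′ to 3′ on the plus strand over the 250 bases that end just before the transcript start, Mt1 at chr8:94178839-94179088 and Mt2 at chr8:94172368-94172617, with matches in capitals.
Mt1: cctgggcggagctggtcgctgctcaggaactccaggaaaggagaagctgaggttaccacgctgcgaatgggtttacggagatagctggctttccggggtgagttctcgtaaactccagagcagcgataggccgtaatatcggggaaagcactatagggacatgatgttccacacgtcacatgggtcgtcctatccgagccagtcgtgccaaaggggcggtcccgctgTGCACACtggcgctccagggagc
Mt2: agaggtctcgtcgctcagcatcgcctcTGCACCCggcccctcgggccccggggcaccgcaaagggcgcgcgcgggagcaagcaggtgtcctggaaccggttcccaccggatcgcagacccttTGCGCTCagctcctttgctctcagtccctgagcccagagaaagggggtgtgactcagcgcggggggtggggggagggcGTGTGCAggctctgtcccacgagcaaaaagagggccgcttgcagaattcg
The Mt1 stretch held 1 match, with its first base 23 bases before the start, and the Mt2 stretch held 3, at 223, 128 and 50 bases before it. The Mt1 stretch lies partly inside the annotated gene, which spans chr8:94178883-94180327, because the table's start is not the first one annotated. Mt2 spans chr8:94172618-94173567. With the first 50 transcribed bases included, the Mt1 window held 3 matches and the Mt2 window 4. Of all 32851 promoter windows of that length, 25.7% held at least 1 core and 1.97% at least 3. A match describes the letters only.

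Mt1 had an intensity of 93829 on the YAP (WT) array, 104782 on YAP (1SA) and 49374 on YAP (2SA). YAP (2SA) was the low array for this gene. Intensities are given as deposited, before any scaling between arrays, while all differences are of scaled log2 values. With intensities divided by the 75th percentile of their array, Mt1 was 2.09-fold lower in YAP (2SA) than in YAP (WT), a log2 difference of -1.06, and 2.46-fold lower than in YAP (1SA), at -1.30. It was 0.24 higher in YAP (1SA) than in YAP (WT) on the same log2 scale. The only repeat measurement on these arrays is that of probes spotted several times. Their SD gave an SD of 0.105 for the log2 difference of a single spot between arrays, and the Mt1 difference of 0.24 was just over the limit of 0.209 set by doubling it. Each member probe was spotted 1 time per array, none was saturated, and the scanner software put the error of each metallothionein spot at 10%. That error gives 0.204 for a difference, or 0.408 when doubled, which exceeds the Mt1 difference of 0.24.

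Mt2 had an intensity of 65900 on YAP (WT), 50235 on YAP (1SA) and 37052 on YAP (2SA), so YAP (2SA) was again the lowest array. Its log2 difference from YAP (WT) was -0.97 in YAP (2SA), a 1.95-fold lower level that lay just inside the 2-fold threshold, and -0.31 in YAP (1SA). The neighbouring metallothionein genes were thus within 0.10 of each other in YAP (2SA) against YAP (WT), and 0.55 apart in YAP (1SA) against YAP (WT), where Mt1 was higher and Mt2 lower. Among all measured genes, 98.5% had a smaller absolute difference than Mt1 between YAP (2SA) and YAP (WT), and 98.1% a smaller one than Mt2. Among the 500 genes nearest in signal the shares were 99.8% and 99.6%. Both metallothionein probes are among the bright ones of the array, where the highest intensity was between 348050 and 377413. Whether the similar Mt1 and Mt2 transcripts bind each other's probe was not tested, since probe sequences were not used here.

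The other metallothionein genes did not reach 2-fold. Mt3, best known from brain, had intensities of 306.8, 254.0 and 319.2 on YAP (WT), YAP (1SA) and YAP (2SA), with log2 differences from YAP (WT) of -0.20 and -0.08. Mt4, known from squamous epithelium, had 29.0, 26.3 and 24.6, with differences of -0.06 and -0.37. All 4 family members lay below YAP (WT) in YAP (2SA), with a median of -0.67 against -0.03 over all genes. Of these, Mt3 was inside the spot limit of 0.209. Mt4, at 24.6, was close to the median spot intensity of 22.2 on the YAP (2SA) array.

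**Figure D1:**
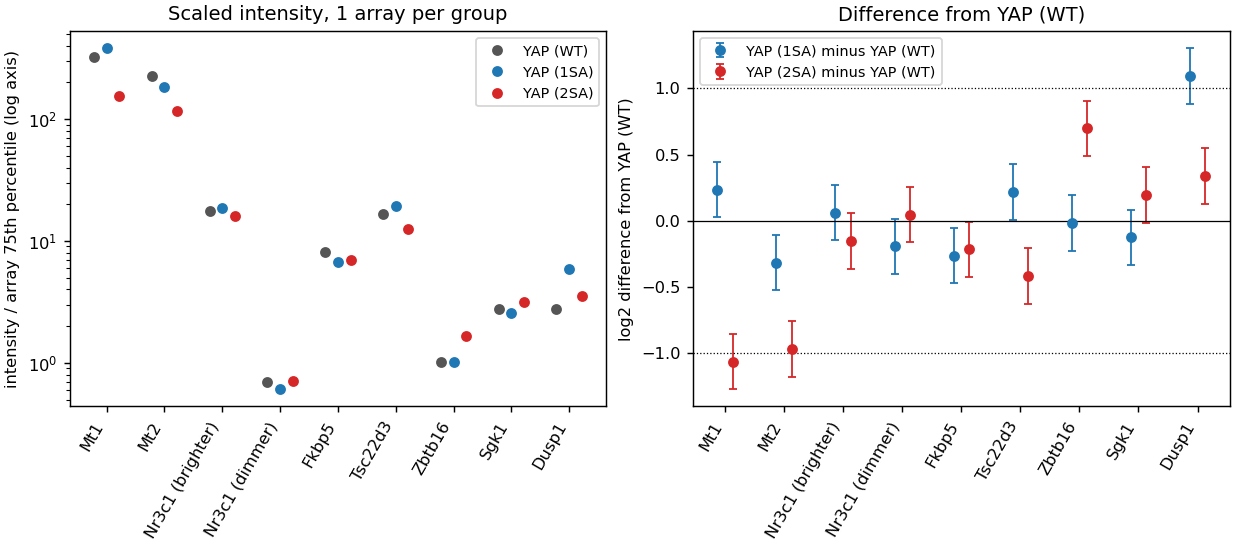
Left, intensity of each member probe divided by the array's 75th percentile (log axis), 1 point per array; levels of different probes are not comparable. Right, log2 difference of YAP (1SA) and YAP (2SA) from YAP (WT), with bars of 0.209, the doubled SD of a difference between repeated spots, and dotted lines at 2-fold; Mt1 and Mt2 lie near the lower line in YAP (2SA) and Dusp1 lies above the upper line in YAP (1SA).

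Genes that sense and move metal ions did not stand at 2-fold in any comparison. Of all genes, 1.88% did in YAP (1SA), 1.71% in YAP (2SA) and 3.66% between the mutants. Of the 17 listed, 15 were measured on all arrays, Slc30a2 was measured in the mutants alone, and Slc39a5 was not well above background on any array. In YAP (2SA) against YAP (WT), 11 of 15 lay below 0, with a median of -0.12, and in YAP (1SA) 8 of 15, with a median of -0.005. The largest differences from YAP (WT) were those of the manganese exporter gene Slc30a10, with intensities of 77.1, 70.9 and 125.3 and a difference of 0.57 in YAP (2SA), and of the zinc importer gene Slc39a10, with 41.6, 27.6 and 47.9 and a difference of -0.51 in YAP (1SA). Mtf1, which encodes the metal sensor and was picked after its values were seen, had 396.2, 420.7 and 336.7, which gave 0.16 in YAP (1SA) and -0.37 in YAP (2SA). Slc30a1, a zinc exporter and a classical MTF1 target, also picked in that way, was at -0.07 in YAP (1SA) and -0.06 in YAP (2SA).

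All 10 hepatocyte markers were measured, 9 were above YAP (WT) in YAP (1SA) with a median of 0.21, and 8 were below it in YAP (2SA) with a median of -0.14, where the lowest was -0.33. Their summed scaled level was 4702 times the 75th percentile in YAP (WT), 5213 in YAP (1SA) and 4150 in YAP (2SA). Under quantile normalisation the hepatocyte medians were 0.10 in YAP (1SA) and -0.05 in YAP (2SA). All 8 Kupffer cell markers were measured too, with medians of -0.26 and -0.87 and sums of 216.2, 161.4 and 114.9. The defining gene Clec4f was at 0.45 in YAP (1SA) and -1.56 in YAP (2SA). Without Cd5l and Marco, which made up most of the sum, the other 6 Kupffer cell markers summed to 48.3, 52.6 and 33.0, so their sum in YAP (1SA) was above that in YAP (WT). These 6 were split there, with Clec4f, Vsig4 and C6 above YAP (WT) and Timd4, Adgre1 and Folr2 below it. Of all 8 Kupffer cell markers, 5 lay below YAP (WT) in YAP (1SA) and 7 in YAP (2SA). Fewer cells of a type and less RNA per cell cannot be told apart in whole liver, and the part of these markers in the metallothionein values was not tested.

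Nr3c1, the glucocorticoid receptor gene (chr18:39410545-39519421), was nearly level over the arrays. Its brighter probe read 5148, 5099 and 5088 on YAP (WT), YAP (1SA) and YAP (2SA), with scaled log2 differences from YAP (WT) of 0.06 and -0.15. Its dimmer probe read 201.1, 166.9 and 228.2, with differences of -0.19 and 0.05, so the probes disagreed in sign in both. None of these 4 differences from YAP (WT) passed 0.209.

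The co-chaperone gene Fkbp5 (chr17:28398753-28486149) had intensities of 2355 on YAP (WT), 1863 on YAP (1SA) and 2230 on YAP (2SA). Both mutants were slightly below YAP (WT), by log2 differences of -0.26 and -0.21, and within 0.05 of each other. The other receptor chaperone and coregulator genes had the narrowest range of the 10 lists. All 15 were measured, all lay between -0.30 and 0.25 against YAP (WT), and the medians were 0.003 and 0.008. The widest were the mineralocorticoid receptor gene Nr3c2, with intensities of 52.8, 41.7 and 47.0 and differences of -0.26 and -0.30, and the co-chaperone gene Stip1, with 1217, 1035 and 1585 and differences of -0.16 and 0.25.

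Tsc22d3, on chromosome X at 140539528-140600522, had intensities of 4813, 5304 and 3964. It stood above YAP (WT) in YAP (1SA) by 0.22, past the spot limit and inside the doubled scanner error of 0.408, and below it in YAP (2SA) by a log2 difference of -0.42, which put the mutants 0.63 apart. Zbtb16 (chr9:48651797-48836225), a zinc finger transcriptional repressor, had 298.1 on YAP (WT), 279.6 on YAP (1SA) and 531.2 on YAP (2SA). It was the one member above both other arrays in YAP (2SA) by more than 0.5, at 0.70 over YAP (WT) and 0.71 over YAP (1SA), and 95.5% of genes had a smaller absolute difference from YAP (WT). Zbtb16 also marks some innate-like lymphocytes. The 5 measured of the 8 other T, NK and B cell markers had a median of 0.03 in YAP (2SA) against YAP (WT), from -0.16 to 0.47, and their part in the Zbtb16 value was not tested.

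Sgk1 encodes a serine and threonine kinase induced by glucocorticoids and mineralocorticoids. It had intensities of 804.9, 700.4 and 1013, with log2 differences from YAP (WT) of -0.12 in YAP (1SA) and 0.20 in YAP (2SA), both under the spot limit, while the mutants were 0.32 apart. Dusp1 had 808.5 on YAP (WT), 1635 on YAP (1SA) and 1123 on YAP (2SA). YAP (1SA) was the high array, 2.13-fold above YAP (WT) at a log2 difference of 1.09, larger in size than for 98.5% of genes. YAP (2SA) was 0.34 above YAP (WT) and at -0.75 against YAP (1SA), again on the log2 scale.

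Response elements for these target genes are shown where the same promoter table held them. The glucocorticoid response element was searched as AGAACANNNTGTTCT, its single arm as AGAACA, which overlaps it, and the cyclic AMP response element as TGACGTCA, all on both strands. Sgk1 is shown at chr10:21993681-21993740 on the plus strand and Dusp1 at chr17:26508582-26508641 on the minus strand, matches in capitals, 5′ to 3′, in GRCm38.p6.
Sgk1: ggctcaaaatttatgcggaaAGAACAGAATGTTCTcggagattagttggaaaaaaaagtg
Dusp1: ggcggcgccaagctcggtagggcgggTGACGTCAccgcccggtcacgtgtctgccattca
The full glucocorticoid element was in 3 of the 32851 windows, or 0.00913%, and 1 of the 6 Sgk1 windows was among them, with the first base 189 bases before the start. The cyclic AMP element began 143 bases before the Dusp1 start, and 1.79% of windows held it. The single arm was in 19.0% of windows, among them 3 of Sgk1 and 1 of the 3 of Tsc22d3, and the Fkbp5 window held none of the motifs. In all, 13 windows of 6 members were in the table. Genes span chr10:21882184-21999903 for Sgk1 and chr17:26505591-26508472 for Dusp1.

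Set side by side, the 8 members did not share a direction. Between YAP (1SA) and YAP (WT), 1 of 8 was at least 2-fold higher (Dusp1), where 0.739% of 13674 genes were, and 0 of 8 at least 2-fold lower, where 1.14% were. Between YAP (2SA) and YAP (WT), 0 of 8 were at least 2-fold higher against 1.15% of 13780 genes, and 1 of 8 (Mt1) lower against 0.559%. Between YAP (2SA) and YAP (1SA) the counts were 0 higher against 2.49% of 13869 genes and 1 lower (Mt1) against 1.16%. The member medians were 0.02, -0.18 and -0.42 in that order, beside -0.002, -0.03 and -0.03 over all genes. In either direction the count was 1 of 8 in each comparison, where 1.88%, 1.71% and 3.66% of genes stood at 2-fold. Differences past the spot limit of 0.209 were seen in 5, 6 and 7 of 8 members, while 34.9%, 34.9% and 45.2% of all genes passed it. Under quantile normalisation the counts were 3, 5 and 6 of 8 members, while 33.999%, 34.5% and 43.5% of all genes passed the limit. The 7 between the mutants include Nr3c1 by its brighter probe, at -0.22, while its dimmer probe was at 0.24.

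**Figure D2:**
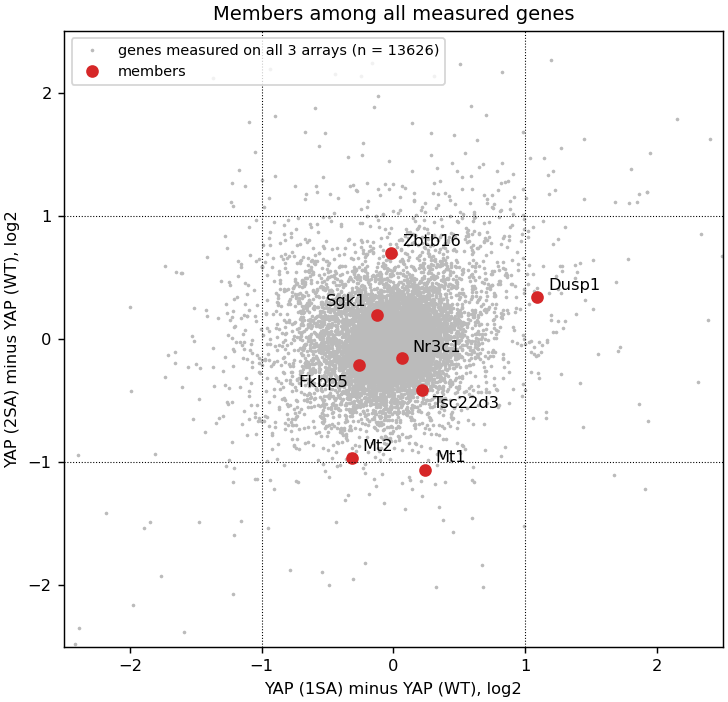
Log2 difference from YAP (WT) in YAP (1SA) (x axis) and YAP (2SA) (y axis) for 13626 genes (grey) and the 8 members (red), with dotted lines at 2-fold and 18 genes outside the axes; Nr3c1 is its brighter probe. Both axes share the YAP (WT) array; Mt1 and Mt2 lie at the lower dotted line, Dusp1 just past the right one, and Zbtb16 below the upper one.

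The genes whose pair of differences from YAP (WT) lay nearest to Mt1, by Euclidean distance over the 3 arrays among 13625 genes, were Hspa1a, Fam171b and Usp2. Hspa1a, an inducible heat shock gene with a near-identical neighbour copy, had intensities of 98.4, 111.8 and 54.7 and a distance of 0.08. Fam171b had 43.8, 48.0 and 21.6, and the deubiquitinase gene Usp2 had 2391, 2852 and 1289, both at 0.10. Mt2 ranked 228 in this order, at 0.56, and Tsc22d3 392. Nearest to Dusp1 was the Mediator subunit gene Med1, with 10510, 20908 and 14668 and a distance of 0.02. Next were the olfactory receptor gene Olfr417, with 18.6, 36.8 and 26.7, and the crystallin gene Crybb3, with 31.6, 64.0 and 46.3. Olfr417, Crybb3 and Fam171b were dim, on arrays where the median spot intensity was 18.9 to 22.2.

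The other glucocorticoid-induced genes were spread to both sides. All 26 were measured. In YAP (1SA) 17 were above YAP (WT) and 9 below, with a median of 0.15, and in YAP (2SA) the split was 13 and 13, with a median of -0.04. At 2-fold, 1 was higher and 1 lower in YAP (1SA), and 3 were higher and 1 lower in YAP (2SA). Between the mutants 4 were higher and 2 lower in YAP (2SA), with 16 of 26 below 0 and a median of -0.31. Of all genes, 0.739% were 2-fold higher and 1.14% lower in YAP (1SA), and 1.15% and 0.559% in YAP (2SA). Between the mutants the shares of all genes were 2.49% and 1.16%.

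Bcl6 and Igfbp1 stood above YAP (WT) in each mutant. Bcl6, a transcriptional repressor, had intensities of 544.1, 1184 and 2874, with differences of 1.20 in YAP (1SA) and 2.27 in YAP (2SA). Igfbp1, a secreted binding protein of insulin-like growth factors, had 2657, 4233 and 6150, with 0.75 and 1.08.

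A second set stood below YAP (WT) in YAP (1SA) and above it in YAP (2SA). Txnip, an inhibitor of thioredoxin, had 1924, 1213 and 4997, with differences of -0.59 and 1.24. Angptl4, an inhibitor of lipoprotein lipase, had 14631, 7634 and 27594, with -0.86 and 0.78. Cdkn1a, the p21 cell cycle inhibitor, had 463.1, 194.1 and 726.0, with -1.18 and 0.51. These 3 lay between 1.64 and 1.83 higher in YAP (2SA) than in YAP (1SA) on the log2 scale.

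The genes that stood 2-fold lower in YAP (2SA) than in YAP (1SA) were Mfsd2a and Errfi1. Mfsd2a, a transporter of lysophospholipids, had 1581, 1066 and 434.7, with a difference from YAP (WT) of -0.49 in YAP (1SA) and a 3.996-fold lower level in YAP (2SA). Errfi1, a feedback inhibitor of EGF receptor signalling, had 49776, 57471 and 32087, with 0.28 and -0.77. Like Mt1 and Tsc22d3, Errfi1 lay on opposite sides of YAP (WT) in the mutants. Other targets, picked after their values were seen, do not stand for the list, which was split 13 and 13 in YAP (2SA). Pdk4 was at -0.09 and 0.82, G6pc at -0.06 and 0.29, and Rhob at -0.14 and 0.15 in YAP (1SA) and YAP (2SA). Cebpd, a transcription factor, was at 0.57 and -0.40, the stress gene Ddit4 at 0.53 and -0.43, the acute phase gene Lcn2 at 0.49 and -0.40, and the serine dehydratase gene Sds at 0.12 and -0.48 in YAP (1SA) and YAP (2SA). The tyrosine aminotransferase gene Tat was at 0.43 and -0.33, the gluconeogenic gene Pck1 at 0.31 and -0.27, the clock gene Per1 at -0.08 and -0.38, Klf9 at 0.16 and 0.08, and the tryptophan dioxygenase gene Tdo2 at 0.14 and 0.06 in YAP (1SA) and YAP (2SA). Tat and Pck1 are also in the hepatocyte list above.

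**Figure D3:**
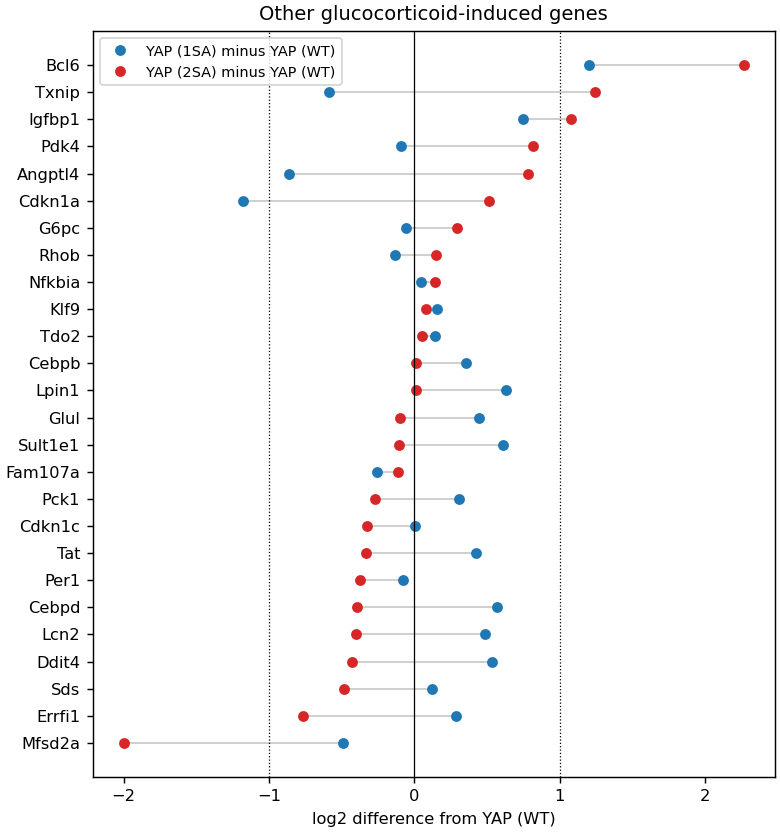
Log2 difference from YAP (WT) of the 26 other glucocorticoid-induced genes in YAP (1SA) (blue) and YAP (2SA) (red), 1 array per group, ordered by YAP (2SA), with dotted lines at 2-fold. Bcl6 is highest and Mfsd2a lowest in YAP (2SA), and Txnip, Angptl4 and Cdkn1a span 0 in the direction opposite to Errfi1.

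Corticosteroid transport and metabolism held no gene at 2-fold among 8 measured of 9, with medians of 0.16 and -0.08. Of all genes, 1.88% in YAP (1SA) and 1.71% in YAP (2SA) stood at 2-fold from YAP (WT). Hsd11b2, which inactivates glucocorticoids in kidney, was not well above background. The largest differences were those of Cyp3a11, a steroid-oxidising cytochrome with intensities of 138700, 86740 and 132240 and differences of -0.60 and -0.20, and of the efflux pump gene Abcb1a, with 337.0, 226.6 and 477.1 and differences of -0.50 and 0.37. Hsd11b1, which regenerates active hormone in liver and was picked after its values were seen, had 24511, 28499 and 24502, with 0.29 and -0.14.

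Relatives of the members by family lay on both sides of YAP (WT), with 20 of 23 measured on all arrays and medians of 0.02 and -0.03. Differences from YAP (WT) passed the spot limit of 0.209 in 9 of 20 in YAP (1SA) and 5 of 20 in YAP (2SA). Of all genes, 34.9% passed it in each of these comparisons. At 2-fold stood 1.88% of all genes in YAP (1SA) and 1.71% in YAP (2SA). The one relative at 2-fold was Dusp4, another phosphatase of MAP kinases, with intensities of 41.7, 84.4 and 37.8. It was 1.09 above YAP (WT) in YAP (1SA), as Dusp1 was, and at -0.28 in YAP (2SA). Dusp5 was not well above background, and Dusp8 and Tsc22d2 were measured in the mutants alone.

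Immediate early genes, which growth factors and stress induce within minutes and to which Dusp1 is often counted, had medians of 0.30 in YAP (1SA) and 0.35 in YAP (2SA). Of 15 measured of 16, 12 lay above YAP (WT) in each mutant, and 3 in each were at least 2-fold higher, against 0.739% and 1.15% of all genes, with 0 at least 2-fold lower. Atf3, picked after its values were seen, was below YAP (WT) in both, at -0.32 and -0.36. Egr1 had intensities of 430.8, 1408 and 744.3, Nr4a1 had 261.4, 858.2 and 618.7, and Myc had 209.6, 472.4 and 304.8. These 3 were highest in YAP (1SA), at 1.79, 1.79 and 1.25, and lower in YAP (2SA), at 0.65, 1.11 and 0.40, the same order of arrays as Dusp1. Fos had 36.3, 42.4 and 90.9 and Ier3 had 63.5, 62.9 and 165.0. Both were highest in YAP (2SA), at 1.19 and 1.24. The part of these genes in the Dusp1 value was not tested.

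Acute phase genes, which inflammatory cytokines and glucocorticoids raise together in hepatocytes, had medians of 0.19 in YAP (1SA) and -0.04 in YAP (2SA) over 16 measured of 16. Socs3, a feedback inhibitor of cytokine signalling, was the one at 2-fold, with intensities of 805.1, 1644 and 709.6 and differences of 1.11 and -0.32. Of all genes, 1.88% stood at 2-fold in YAP (1SA) and 1.71% in YAP (2SA). Targets of NRF2, a transcription factor of the oxidative stress response, had medians of 0.12 and -0.28 over 7 measured of 8. In YAP (2SA) 6 of 7 lay below YAP (WT). The other, Hmox1, was at 0.27 there and at -0.40 in YAP (1SA). Among the NRF2 targets Srxn1, which repairs oxidised peroxiredoxins, had 14868, 20239 and 8973, with 0.52 and -0.86. It was at -1.39 between the mutants, where Mt1 was at -1.30.

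**Figure D4:**
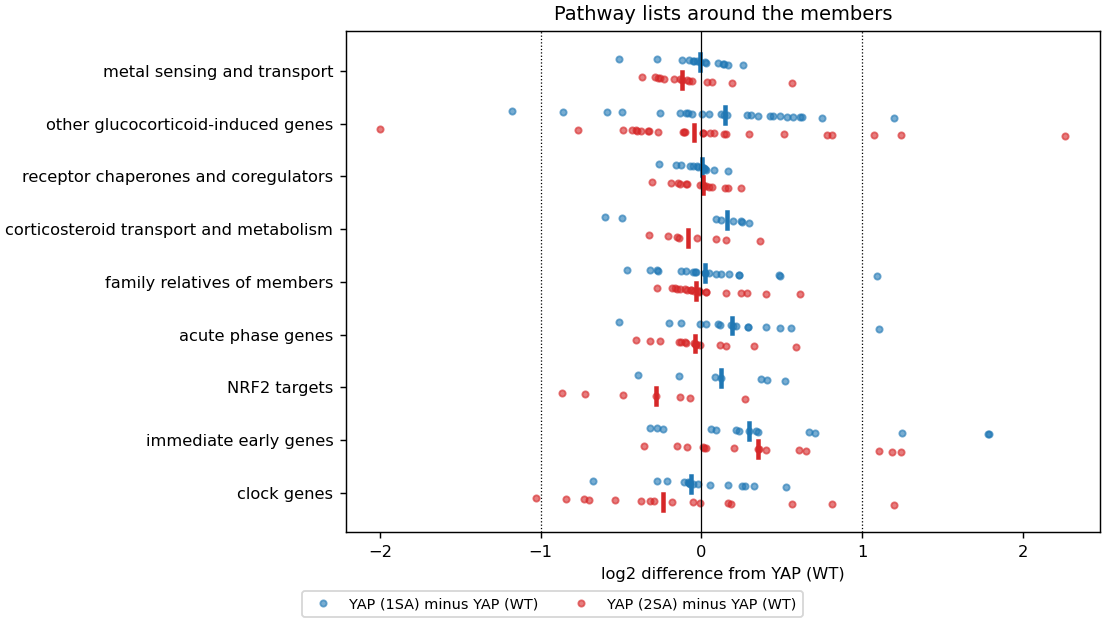
Log2 difference from YAP (WT) of every measured gene (points) of 9 pathway lists in YAP (1SA) (blue) and YAP (2SA) (red), with list medians as vertical bars and dotted lines at 2-fold. Receptor chaperones and coregulators stay closest to 0, NRF2 targets lie mostly below 0 in YAP (2SA), and immediate early genes reach 1.79 in YAP (1SA).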

How the data were processed

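Total RNA of whole liver was labelled with Cy3 and hybridised to 3 one-colour arrays, 1 per group, and groups were taken from the sample titles. The deposited intensity of a spot is, per the file headers, the brightness processed by Agilent Feature Extraction 10.10.1.1 (background and trends within the array removed), with no scaling between arrays. The matrix of the series carries these values, the deposited intensity multiplied by 1 constant for each array (3.02, 3.08 and 2.81 for WT, 1SA and 2SA, of unstated origin).

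Of 59305 non-control spots per array, those with outlier flags were left out (148 to 182). Spots of a probe were averaged as log2 values, less the log2 of the 75th percentile over the array (275.7 to 319.5). A probe was measured where at least 50% of its spots were well above background, which held for 28972 to 30784 of 55681 probes. RefSeq accessions matched 26762 probes to 20284 genes of a GRCm38.p6 table. The probes were designed on mm9 per the file headers, so gene positions and promoters are those of GRCm38.p6 and probe positions are not given. Where a gene had several probes, the brightest one measured on all arrays stood for it.

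Differences of log2 values were read against the SD of repeated spots (median 0.07 per array), which covers spots and not animals. The number of arrays limits the precision. No test was run. The calculation was tested on simulated data. Members and gene lists were chosen with earlier results of these data known. Named are all members, list genes at 2-fold or otherwise the 2 farthest from WT, and the 3 genes nearest to each member at 2-fold. The 10 marker lists were described by medians and sums. Alternatives were quantile normalisation, the array median, normexp with an offset of 50 on median spot and background signals, the series matrix, the mean of a gene's probes, no filter on dim probes, outlier spots kept, other fold thresholds and, for lists, genes above the median signal. Python 3.11.15 with pandas 2.3.3, numpy 2.4.6, scipy 1.17.1 and matplotlib 3.10.9 and R 4.3.3 with limma 3.58.1 (normexp) were used.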

Additional observations from a re-analysis of the deposited data

Results flagged for a closer look

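Mt1 and Tsc22d3 lay on opposite sides of the YAP (WT) array in the mutants, each by more than the limit of 0.209 set by repeated spots. For Mt1 the log2 difference from YAP (WT) was 0.24 in YAP (1SA) and -1.06 in YAP (2SA). For Tsc22d3 it was 0.22 and -0.42. With 1 array on each side the difference between the mutants' effects was not tested. Both values in YAP (1SA) were near the limit and inside 0.408, the doubled error of a difference by the scanner software. Under quantile normalisation they were 0.09 for Mt1 and 0.18 for Tsc22d3, both under the limit.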

How the results depend on the processing

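No paired analysis was possible because there was a single array in each group, and the number 1 that the mutants share was given in accession order and pairs nothing. Quantile normalisation, the array median and normexp gave 72 values, and the mean of the probes gave another 3 for Nr3c1, the one member with more than 1 probe. Of these 75, 6 moved by at least 0.105, and 5 changed in sign, all from main values within 0.22 of 0 and all of Nr3c1 or Zbtb16. Mt1 in YAP (2SA) against YAP (WT) stayed between -1.08 and -1.04, Mt2 between -0.97 and -0.93, and Dusp1 in YAP (1SA) between 1.03 and 1.13. The 6 were Mt1 in YAP (1SA) against YAP (WT) at 0.09, Mt1 and Mt2 between the mutants at -1.13 and -0.53 (quantile), Zbtb16 between the mutants at 0.58 (normexp), and Nr3c1 at -0.06 and 0.01 (mean of probes). The series matrix, outlier spots and the filter on dim probes could not change a member.

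With the mean of probes the member median between the mutants was -0.31. Quantile normalisation brought several list medians nearer to 0. In YAP (1SA) they were 0.10 for hepatocyte markers, 0.08 for acute phase genes and 0.05 for corticosteroid transport and metabolism. Between the mutants these 3 went from -0.39, -0.17 and -0.22 to -0.18, -0.01 and -0.07. For the other glucocorticoid-induced genes, quantile normalisation left 1 lower in YAP (2SA) than in YAP (1SA), and normexp left 0 lower in YAP (1SA) than in YAP (WT). At a 1.5-fold threshold 4 of them were higher and 3 lower in YAP (1SA), where 3.11% and 4.7% of all genes were. In YAP (2SA) 5 were higher and 2 lower, and between the mutants 5 were higher and 9 lower. Lower genes of the list thus outnumbered higher ones between the mutants. Members numbered 1 higher and 2 lower in YAP (2SA) against YAP (WT), where 3.88% and 3.14% of all genes were, and 1 higher and 4 lower between the mutants, where 6.99% and 4.72% were. At 3-fold 0 members passed in any comparison. Of the list 0 were higher and 0 lower in YAP (1SA), and 1 was higher and 1 lower in YAP (2SA). Between the mutants 3 were higher and 0 lower. Of all genes, 0.19% were 3-fold higher and 0.219% lower in YAP (1SA), and 0.261% and 0.16% in YAP (2SA). Between the mutants the shares of all genes were 0.642% and 0.281%. Over list genes above the median signal, the median was 0.30 in YAP (1SA) and -0.45 between the mutants, and 0 were lower in YAP (1SA). The cause of these shifts was not tested, beyond the thresholds themselves and the fewer genes.

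The background shares depended on dim probes. Without the filter 2.73% of genes were at least 2-fold higher and 3.89% lower in YAP (1SA), 2.88% and 3.57% in YAP (2SA), and 4.14% and 3.38% between the mutants, and the higher genes made up 44.7% of those at 2-fold in YAP (2SA) in place of 67.2%, and 55.1% in place of 68.2% between the mutants. With normexp the shares were 0.366% and 0.351%, 0.457% and 0.181%, and 1.09% and 0.404%, and the higher genes made up 51.0% in YAP (1SA) in place of 39.3%. Mt4, Nr3c2 and Dusp4, at intensities of 24.6 to 84.4, are among the dim genes.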

Other observations

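Clock genes were listed because Per1 and Usp2 follow both daily rhythm and corticosteroids in liver. Of 16 measured of 17, 10 lay below YAP (WT) in YAP (1SA) and 11 in YAP (2SA), with medians of -0.06 and -0.24. Arntl, the activator also called BMAL1, had intensities of 47.0, 36.8 and 118.7 on YAP (WT), YAP (1SA) and YAP (2SA), with log2 differences from YAP (WT) of -0.28 and 1.20. Its repressor Nr1d1 had 535.2, 317.9 and 1035, with -0.67 and 0.82. On the opposite side, Usp2 was at 0.33 and -1.03, and the repressor Ciart, with 413.6, 440.2 and 253.6, at 0.17 and -0.84. These 4 were the clock genes at 2-fold between the mutants, where 3.66% of all genes stood at 2-fold. Arntl was dim on YAP (WT) and YAP (1SA), where the median spot intensity was 20.4 and 18.9. The part of the clock genes in the values of Mt1 or of the glucocorticoid-induced genes was not tested.

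Markers of other liver cells were measured beside the members. The sums over monocyte and macrophage markers were 34.7, 22.9 and 35.1 times the 75th percentile on YAP (WT), YAP (1SA) and YAP (2SA), with 6 of 8 genes measured. These genes did not move together. Against YAP (WT) they ran from -1.73 to 2.33 in YAP (1SA), with a median of -0.61. In YAP (2SA) they ran from -0.31 to 1.20, with a median of 0.26. Between the mutants 5 of 6 were higher in YAP (2SA), with a median of 1.19. The sums over sinusoidal endothelial markers were 85.6, 89.4 and 72.3, those over stellate cell markers 43.4, 37.6 and 29.3, and those over cholangiocyte markers 13.2, 4.37 and 10.9. Spp1, which is in the macrophage list too, made up 12.2, 3.66 and 9.80 of the cholangiocyte sums, and the other 5 genes summed to 1.04, 0.706 and 1.06. Neutrophil, red blood cell, lymphocyte and muscle or pancreas markers had 3 of 8, 3 of 7, 6 of 9 and 2 of 6 genes measured, with medians in YAP (2SA) against YAP (WT) of 0.13, 0.09, 0.23 and -0.56. The lymphocyte list includes Zbtb16.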
